A study of Homo sapiens with 6 samples.

Results

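The TRIM genes, which encode tripartite motif proteins, were taken as every gene whose symbol is TRIM followed by a number and at most 1 letter and that had at least 1 probe set annotated to it alone. A total of 59 of the 18132 measured genes met this rule, carried by 159 of the 49395 probe sets. The 6 arrays are of T24 cells, an established human urothelial bladder carcinoma line. The 3 MAP30 arrays carry RNA of cells given MAP30, a ribosome-inactivating protein of bitter melon, at 10 µg/ml and collected after 48 hours. The 3 control arrays carry RNA of T24 cells labelled normal, whose vehicle and time in culture are not given in the sources used here. The comparison asks which TRIM transcripts differ after MAP30.

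The TRIM family is one of the largest groups of RING-type ubiquitin ligases. A typical member carries a RING domain that recruits an E2 enzyme, 1 or more B-box domains, a coiled coil that makes it dimerise and a variable C-terminal domain that picks the substrate. Many members with a SPRY domain at the C terminus act in innate immunity and several are induced by interferon. Others bind microtubules, silence chromatin or turn over muscle proteins, and a few lack the RING.

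Values are log2 expression centred for each probe set on its median over the 6 arrays, so a value says how far an array lies from that median and not how abundant a transcript is. No member can be called bright, dim or absent, the members cannot be ranked by level, and the label of the line could not be checked against the level of its markers. A gene's value is the mean over its probe sets. Log2 fold changes are MAP30 minus control, with the standard error (SE) of a limma fit over all 18132 genes, and a gene is said to rise or fall where its Benjamini-Hochberg adjusted p was under 0.05 in that fit. The labels do not tell whether the 3 replicates of a group were grown apart, so p-values reflect only how these samples scatter, and that scatter may be technical. In bulk RNA, fewer cells with a transcript and less of it per cell cannot be told apart. The SD of the difference between arrays was 0.105 to 0.121 within groups and 0.617 to 0.621 between groups. The log2 difference between 3' and 5' probe sets of ACTB, a gauge of RNA quality, was higher with MAP30 by 0.158 (SD 0.007 in MAP30 and 0.021 in control, n = 3 each; exact permutation p = 0.1, the smallest that 3 against 3 can give). For GAPDH the same difference was higher with MAP30 by 0.043 (SD 0.008 in MAP30 and 0.013 in control, exact permutation p = 0.1). The part of RNA quality in the results below was not tested.

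With MAP30, 15 TRIM genes rose, 20 fell and 24 did not pass the test. The 35 that passed are 59.3% of the family, near the 57.5% of all genes that passed. Over all genes, 26.9% rose and 30.6% fell. The groups did not overlap in 34 TRIM genes, or 57.6%, against 62.6% of all genes. Genes named below for the largest changes were picked from those without overlap, so groups that lie apart are no separate result for them. The median log2 fold change of the family was -0.04, against -0.02 over all genes, and the median size was 0.184, against 0.191. Most changes were small: 38 of the 59 genes differed by at most 0.25 on the log2 scale in either direction. Only TRIM55 and TRIM22 passed with a change of at least 2-fold in the gene mean, which is 3.39% of the family, while 9.54% of all genes did so. Counted by probe set, 9 TRIM genes (15.3%) had at least 1 probe set that passed with at least a 2-fold change, close to the 15.8% of all genes. These were TRIM4, TRIM7, TRIM14, TRIM22, TRIM25, TRIM27, TRIM36, TRIM45 and TRIM55.

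Directions of the smaller changes depend on how the arrays are scaled. Control RNAs added at hybridization lay higher on the MAP30 arrays by 0.209 in log2, and poly-A control RNAs added to the sample lay lower by 0.164. Centring each array on its hybridization controls, called hybridization scaling below, left 4 TRIM genes higher and 42 lower, where 17% and 63.7% of all genes were called. Centring on the poly-A controls, called poly-A scaling below, gave 28 higher and 12 lower, where 49.1% and 20.7% of all genes were called. Each scaling moves the log2 fold change of every gene by the same amount. The calls of 16 TRIM genes were the same under all 3 scalings: TRIM4, TRIM25, TRIM36 and TRIM55 were higher, and TRIM7, TRIM14, TRIM22, TRIM24, TRIM27, TRIM28, TRIM34, TRIM45, TRIM52, TRIM56, TRIM59 and TRIM66 were lower. The rises of the other 11 genes called higher were not called on hybridization scaling. The falls of TRIM21, TRIM32, TRIM35, TRIM40, TRIM62, TRIM63, TRIM65 and TRIM68 were not called on poly-A scaling.

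**Figure D1:**
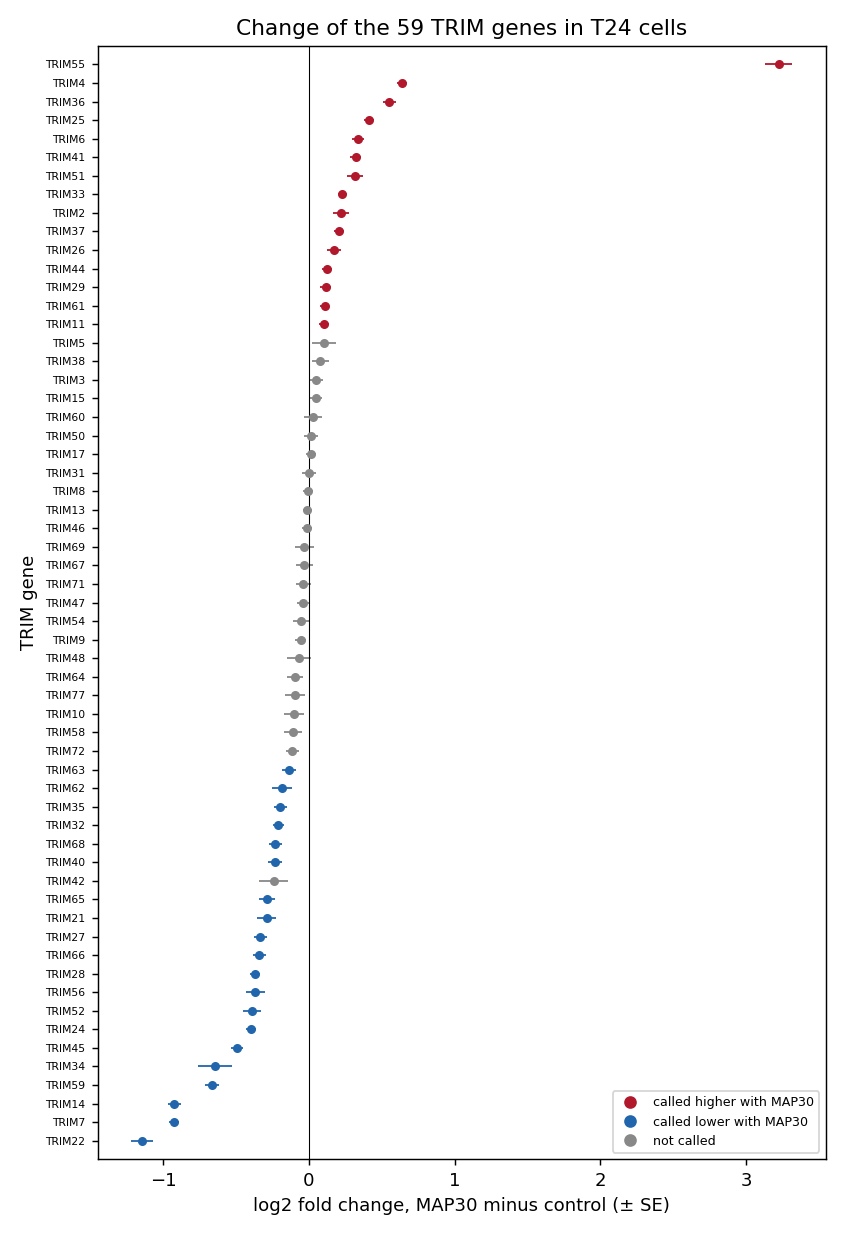
Log2 fold change (MAP30 minus control, x axis) of the 59 TRIM genes, ordered down the page, with SE bars and n = 3 arrays per group. TRIM55 stands alone at 3.22, TRIM22 lies lowest at -1.15, and most genes lie within 0.25 of 0; directions are for the values as deposited, and on hybridization scaling 4 genes were called higher and 42 lower, on poly-A scaling 28 and 12.

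**Figure D2:**
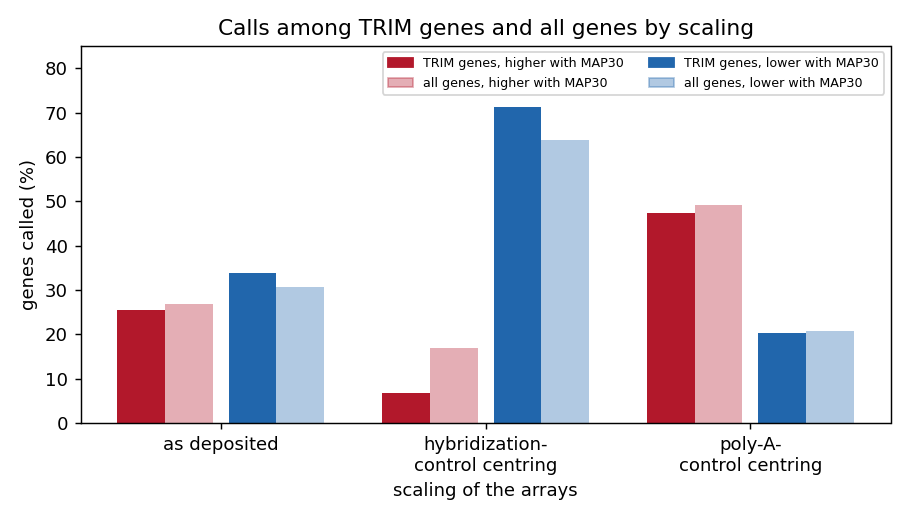
Percent of genes called higher (red) and lower (blue) among TRIM genes (dark) and all genes (pale) under 3 scalings of the arrays. Both sets of genes shift together, to mostly lower calls on hybridization scaling and mostly higher calls on poly-A scaling.

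The largest change in the family was that of TRIM55, which encodes MuRF2, a ligase of the muscle sarcomere that also binds microtubules. TRIM55 had centred values of 1.47, 1.64 and 1.62 on the MAP30 arrays, against -1.62, -1.47 and -1.84 on the control arrays. All MAP30 arrays lay far above all control arrays. The rise was 9.35-fold (log2 fold change 3.22 ± 0.09 SE, adjusted p = 9.63e-08), and 38 of all genes, TRIM55 among them, rose at least that much. Its 3 probe sets rose alike, by 3.42, 2.90 and 3.35. The other MuRF genes did not show this rise. TRIM63, which encodes MuRF1, the ligase best known from muscle atrophy, had values of -0.02, -0.12 and -0.06 on MAP30 arrays, against 0.04, 0.02 and 0.14 on control arrays. That is a difference of -0.14 (adjusted p = 0.0408), a call lost when any of 4 single arrays was left out and on poly-A scaling. TRIM54, which encodes the microtubule-stabilising MuRF3, overlapped between the groups (-0.05 ± 0.05 SE, adjusted p = 0.43).

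Of 10 genes listed for links to the MuRF proteins or to muscle wasting, 6 rose and none fell. Over all genes, 26.9% rose and 30.6% fell. The median log2 fold change of the 10 was 0.67, against -0.02 over all genes. On hybridization scaling 5 were higher and 4 lower, and on poly-A scaling 9 were higher and 0 lower. KLF15, a glucocorticoid-induced transcription factor, rose by 1.98 ± 0.06 SE in log2. The autophagy receptors SQSTM1 and NBR1, which bind MuRF2 in a titin-linked complex, rose by 1.71 and 1.04. NR3C1, the glucocorticoid receptor, rose by 1.13. FOXO3 and MYH9 rose by 1.01 and 0.33. FBXO32, which encodes the other main atrophy ligase, atrogin-1, was at -0.18 and did not pass, and neither did TTN, MYBPC1 or FOXO1.

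**Figure D3:**
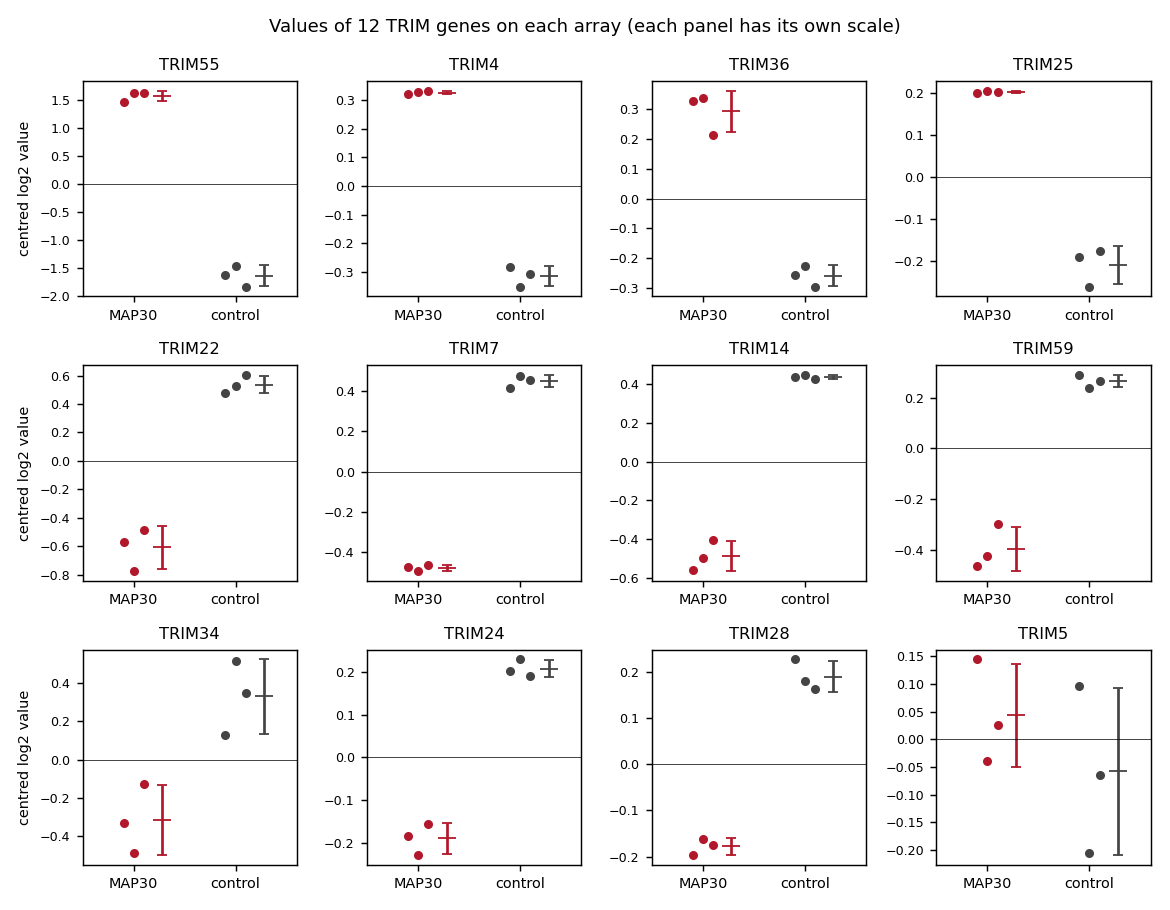
Centred log2 values (y axis, its own scale in each panel) of 12 TRIM genes on the 3 MAP30 arrays (red) and 3 control arrays (grey), with mean and SD beside the points. The groups are apart in 11 panels, and TRIM5 shows them overlapping. These 11 genes were named from those whose groups do not overlap, so their being apart is no separate result. Of all genes, 62.6% had groups that do not overlap.

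Of the 30 measured members with a SPRY domain alone at the C terminus, 7 rose, 9 fell and 14 did not pass, with a median log2 fold change of -0.06. That is 53.3% called, near the 57.5% of all genes, whose median was -0.02. Calls were 2 higher and 21 lower on hybridization scaling and 14 and 4 on poly-A scaling. TRIM22, an interferon-induced restriction factor of retroviruses and influenza virus, had centred values of -0.57, -0.77 and -0.48 on MAP30 arrays, against 0.48, 0.53 and 0.60 on control arrays. Every MAP30 array was below every control array, and the fall was 2.21-fold (-1.15 ± 0.08 SE, adjusted p = 5.62e-06). All 6 TRIM22 probe sets fell, with log2 fold changes of -0.56 to -1.43. TRIM14 was classed with the members that lack the RING and is not among the 30. TRIM14, an adaptor that joins the MAVS complex on mitochondria, had -0.56, -0.50 and -0.41 on MAP30 arrays, against 0.44, 0.45 and 0.43 on control arrays. The 2 groups were again apart, with a 1.90-fold fall (-0.92, adjusted p = 1.06e-06). Of its 4 probe sets, 3 fell, with log2 fold changes of -1.16, -1.60 and -1.03, and 1 stood at 0.09 and did not pass. The 3 that fell are of probe-set classes that can also match related sequence, and the one at 0.09 is not.

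TRIM34, a close relative of TRIM5, had -0.33, -0.49 and -0.13 on MAP30 arrays, against 0.13, 0.51 and 0.35 on control arrays. The arrays spread more for TRIM34 than for any other member (SE 0.12), and the groups still did not overlap. TRIM34 fell 1.56-fold on its own probe set (-0.65, adjusted p = 0.00202). This probe set is of a class that can also match related sequence. Another pair of probe sets is annotated to TRIM34 together with the read-through gene TRIM6-TRIM34, and both fell more, with log2 fold changes of -1.54 and -2.14. TRIM56, a ligase that acts in DNA and RNA sensing, fell by 0.37 ± 0.07 SE. TRIM21, the cytosolic antibody receptor, fell by 0.29 ± 0.06 SE (adjusted p = 0.0053), a call lost on poly-A scaling. TRIM65, which acts on the RNA sensor MDA5, fell by 0.29 ± 0.06 SE.

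TRIM5, which recognises retroviral capsids, had 0.14, -0.04 and 0.03 on MAP30 arrays, against 0.10, -0.21 and -0.06 on control arrays. The groups overlapped (0.10 ± 0.08 SE, adjusted p = 0.338), though 1 of its 3 probe sets rose, by 0.46. TRIM25, which adds ubiquitin chains to the RNA sensor RIG-I, had 0.20, 0.21 and 0.20 on MAP30 arrays, against -0.19, -0.26 and -0.18 on control arrays. The gene mean rose 1.33-fold (0.41 ± 0.04 SE, adjusted p = 2.71e-05), but the mean joins opposite changes. One TRIM25 probe set rose 2.35-fold and the other fell 1.33-fold, and both passed. The one that fell is of a class that can also match related sequence, and the one that rose is not. TRIM4, also reported to act on RIG-I, had 0.32, 0.33 and 0.33 on MAP30 arrays, against -0.28, -0.35 and -0.31 on control arrays. The MAP30 arrays lay together above the control arrays, and TRIM4 rose 1.56-fold (0.64 ± 0.03 SE, adjusted p = 1.63e-06). Of its 6 probe sets, 4 rose: 1 by 1.95 and 1 by 1.35 in log2, and 2 by only 0.29 and 0.16. TRIM6, which makes unanchored ubiquitin chains that activate the kinase IKKε, rose by 0.34 ± 0.04 SE. That rise joins 1 probe set that rose by 0.63 with 1 at 0.04 that did not pass. TRIM26, which targets the interferon regulator IRF3, rose by 0.17 ± 0.05 SE. TRIM8, a regulator of cytokine and NF-κB signalling, was at -0.01 ± 0.03 SE (adjusted p = 0.871).

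The interferon-stimulated response element is the DNA sequence through which interferon-activated factors bind many antiviral promoters. Its core, written here as GAAANNGAAA, was looked for on both strands of the RefSeq promoters of build GRCh38.p14, which run from 250 bases before to 50 bases after each gene's start. Promoters of 46 of the 59 members were found by symbol, 62 in all. Those of TRIM4, TRIM8, TRIM11, TRIM13, TRIM22, TRIM24, TRIM27, TRIM28, TRIM29, TRIM35, TRIM45, TRIM55 and TRIM60 were not searched. The core was present in 8 of the 62 (12.9%), in 8 genes, and in 3.57% of all 35116 promoters in that table. The 8 genes did not share a direction: TRIM14, TRIM21 and TRIM34 fell, TRIM2, TRIM26 and TRIM44 rose, and TRIM5 and TRIM69 did not pass. The windows of 5 of these genes are printed because these genes are described above and include both directions. Each runs 5′ to 3′ on the gene's strand, the match is in capitals, and a match that starts with TTTC is the core on the opposite strand.
TRIM14, GRCh38.p14 chr9:98119214-98119273, minus strand, fell by 0.92: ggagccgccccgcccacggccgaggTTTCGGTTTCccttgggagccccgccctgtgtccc
TRIM34, GRCh38.p14 chr11:5624886-5624945, plus strand, fell by 0.65: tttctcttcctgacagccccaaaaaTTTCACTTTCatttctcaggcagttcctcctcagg
TRIM21, GRCh38.p14 chr11:4393653-4393710, minus strand, fell by 0.29: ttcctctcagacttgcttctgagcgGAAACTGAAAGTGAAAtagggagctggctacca
TRIM26, GRCh38.p14 chr6:30213560-30213625, minus strand, rose by 0.17: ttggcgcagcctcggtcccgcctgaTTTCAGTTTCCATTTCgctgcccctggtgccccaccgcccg
TRIM5, GRCh38.p14 chr11:5685067-5685126, minus strand, at 0.10 and not called: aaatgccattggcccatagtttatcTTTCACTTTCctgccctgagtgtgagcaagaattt
TRIM21 and TRIM26 hold 2 overlapping matches each, so their runs of capitals are longer. The match ends 17 bases before the start in TRIM14, begins 17 bases after it in TRIM21 and ends 18 bases before it in TRIM5. A match is a description of these letters, and no binding was measured.

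Other motifs were searched on both strands in the same promoters. The gamma-activated site TTCNNNGAA was in 10 of 62 member promoters (16.1%) and 7.66% of all promoters, in 7 genes of which 1 rose, 2 fell and 4 did not pass. The AP-1 site TGANTCA was in 8 (12.9%) and in 7.71% of all. The E-box CACGTG was in 3 (4.84%) and in 7.26% of all, the CREB/ATF site TGACGTCA in 1 (1.61%) and 1.85%, and the TATA box TATAAA in 8 (12.9%) and 11.5%.

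Of 22 genes of cytosolic nucleic acid sensing, in which many TRIM ligases act, 10 rose, 7 fell and 5 did not pass. Called genes were 77.3% of this list, against 57.5% of all genes (26.9% higher and 30.6% lower). Their median log2 fold change was 0.01, against -0.02 over all genes. Calls higher and lower numbered 5 and 12 on hybridization scaling and 13 and 4 on poly-A scaling. TAB2 and TRAF6, which relay ubiquitin signals to NF-κB, rose by 1.07 and 0.98. The kinase TBK1 rose by 0.77, while MAVS, the mitochondrial adaptor downstream of RIG-I, fell by 0.99.

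Neighbouring TRIM genes included some that changed in the same direction and some that changed in opposite ones. On chromosome 11, the group of TRIM5, TRIM6, TRIM34 and TRIM22 had log2 fold changes of 0.10, 0.34, -0.65 and -1.15, of which TRIM5 did not pass. They are listed by annotated start. The promoter window of TRIM5 printed above lies beyond that of TRIM34, so the listing may not be the order of these genes along the chromosome. The pair TRIM21 and TRIM68 on the same chromosome fell, with log2 fold changes of -0.29 and -0.23; TRIM68 is a coactivator of the androgen receptor. On chromosome 5, TRIM41, a ligase of protein kinase C, rose by 0.32 between TRIM7 and TRIM52, which fell. On chromosome 6, TRIM40 fell by 0.23 and TRIM26 rose by 0.17, while TRIM31, TRIM10 and TRIM15 did not pass.

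**Figure D4:**
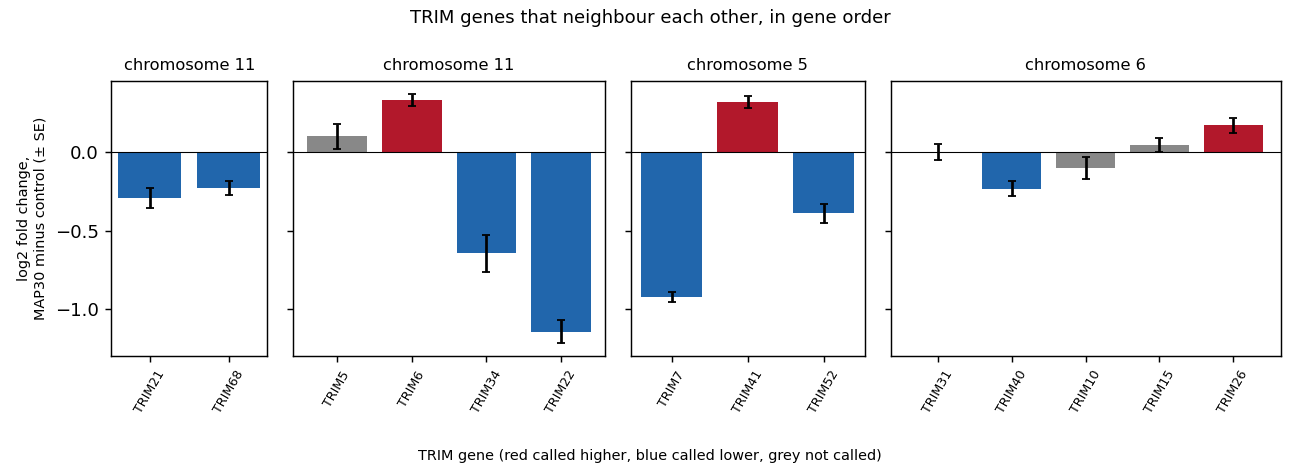
Log2 fold change (y axis, MAP30 minus control, bars with SE, n = 3 arrays per group) of TRIM genes that neighbour each other, listed by annotated start. Red genes rose, blue genes fell and grey genes did not pass. In the larger chromosome 11 group TRIM5 stands at 0.10 and TRIM22 at -1.15, and the place of TRIM5 in the listing may not be its place on the chromosome.

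TRIM7 fell evenly across the arrays. This SPRY protein is known for binding glycogenin, the primer of glycogen synthesis. TRIM7 had centred values of -0.47, -0.49 and -0.46 on MAP30 arrays, against 0.42, 0.48 and 0.45 on control arrays. Arrays within each group differed far less than the groups did. TRIM7 fell 1.90-fold (-0.93 ± 0.03 SE, adjusted p = 2.52e-07), and its 3 probe sets fell, with log2 fold changes of -0.24, -1.67 and -0.86. TRIM52, which has an enlarged RING and no SPRY domain, fell by 0.39 ± 0.06 SE in the mean. Both of its probe sets fell, with log2 fold changes of -0.50 and -0.28. TRIM27, a nuclear ligase and partner of MAGE proteins, fell by 0.33 ± 0.05 SE in the mean. That mean joins 1 probe set at -1.39 with 2 that rose by 0.20 and 0.19, and the median over probe sets gave 0.17, called higher.

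All 4 genes of the TIF1 class, whose proteins read histones through a PHD finger and a bromodomain, passed the test. Of all genes, 57.5% did so. TRIM28 (KAP1), the corepressor that KRAB zinc finger proteins recruit to silence retroelements, had -0.20, -0.16 and -0.18 on MAP30 arrays, against 0.23, 0.18 and 0.16 on control arrays. The groups were apart, and TRIM28 fell by 0.37 ± 0.03 SE on a single probe set. TRIM24 (TIF1α), a coregulator of nuclear receptors and a ligase of p53, had -0.19, -0.23 and -0.16 on MAP30 arrays, against 0.20, 0.23 and 0.19 on control arrays. TRIM24 fell by 0.40 ± 0.04 SE, with all 3 probe sets lower. TRIM66, the testis-rich member, fell by 0.34 ± 0.05 SE, from 1 probe set at -0.72 and 1 at 0.03. TRIM33 (TIF1γ), which acts on SMAD4, went the other way, with 0.11, 0.11 and 0.14 on MAP30 arrays, against -0.11, -0.09 and -0.14 on control arrays. TRIM33 rose by 0.23 ± 0.03 SE, a call lost on hybridization scaling. Its probe sets disagreed: 2 rose, by 0.76 and 0.19, and 1 fell, at -0.26. The class had a median of -0.35, against -0.02 over all genes. Calls higher and lower numbered 0 and 3 on hybridization scaling and 1 and 3 on poly-A scaling.

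Among 20 measured genes of TRIM28-linked silencing, 6 rose and 11 fell (85% called), with a median of -0.18. Over all genes, 57.5% were called (26.9% higher and 30.6% lower) and the median was -0.02. The counts higher and lower were 4 and 14 on hybridization scaling and 8 and 9 on poly-A scaling. The heterochromatin proteins CBX3 and CBX5 fell, with log2 fold changes of -1.28 and -1.03. ATF7IP, a partner of the histone methyltransferase SETDB1, rose by 1.601, and MORC3, a nuclear ATPase, by 1.09. Of 12 measured genes tied to TRIM24 through retinoid and nuclear receptor signalling, 1 rose and 6 fell (58.3% called), with a median of -0.13. The retinoic acid receptor RARA rose by 0.50, its partner RXRA fell by 0.40, the retinoic acid hydroxylase CYP26B1 fell by 0.42 and the coactivator NCOA2 fell by 0.15. Calls higher and lower numbered 1 and 10 on hybridization scaling and 3 and 2 on poly-A scaling. Of 14 genes of TGF-β and SMAD signalling tied to TRIM33, 6 rose and 7 fell (92.9% called), with a median of -0.18. The ligases NEDD4L and SMURF1 rose by 1.73 and 0.71. The SMAD corepressors moved apart, with SKIL higher at 1.58 and SKI lower at -1.004. The counts higher and lower were 4 and 8 on hybridization scaling and 6 and 5 on poly-A scaling.

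In the microtubule-binding class with a COS box, fibronectin type III domain and SPRY domain, 2 of 6 genes rose and none fell, with a median of 0.03. In this class 33.3% were called, against 57.5% of all genes. On hybridization scaling 2 were higher and 3 lower, and on poly-A scaling 5 and 0. TRIM36, first described in the sperm acrosome, had 0.33, 0.34 and 0.21 on MAP30 arrays, against -0.26, -0.23 and -0.29 on control arrays. All MAP30 arrays were above all control arrays, with a rise of 1.47-fold (0.55 ± 0.04 SE, adjusted p = 1.81e-05). Of 5 probe sets, 2 rose, by 1.49 and 1.24, and the other 3 did not pass, at -0.21, 0.15 and 0.10. MID1, the ligase of Opitz syndrome that targets phosphatase 2A, carries a family structure under another symbol, and rose by 0.35 ± 0.04 SE. All 5 MID1 probe sets rose. Its paralogue MID2 did not pass (0.06 ± 0.06 SE), and neither did TRIM9, TRIM46 or TRIM67, which are known from neurons. Of 15 genes of microtubules and their regulation, 5 rose, 5 fell and 5 did not pass, with a median of -0.03. Called genes were 66.7% of this list, against 57.5% of all genes. Tubulins TUBA1A and TUBB fell, with log2 fold changes of -1.61 and -1.48, while ANK3, which encodes ankyrin-G, rose by 2.11 and the autophagy protein gene MAP1LC3B rose by 1.247. Calls higher and lower numbered 5 and 9 on hybridization scaling and 6 and 4 on poly-A scaling.

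TRIM37, mutated in Mulibrey nanism and a guard of centrosome assembly, had 0.13, 0.11 and 0.10 on MAP30 arrays, against -0.10, -0.07 and -0.11 on control arrays. The groups were apart by a small step, 0.21 ± 0.03 SE (adjusted p = 0.000792), and all 4 probe sets rose. On hybridization scaling TRIM37 was at -0.00087 and was not called. Of 13 measured genes of the centrosome and spindle tied to TRIM37, 3 rose and 9 fell, with a median of -0.26. Called genes were 92.3% of this list, against 57.5% of all genes, whose median was -0.02. The counts higher and lower were 2 and 10 on hybridization scaling and 3 and 6 on poly-A scaling. CEP135 and CEP63, of the centriole, rose by 1.497 and 0.93, while TUBG1 (γ-tubulin) and the midzone organiser PRC1 fell, with log2 fold changes of -0.90 and -0.95.

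Among the remaining domain classes, TRIM59, a membrane-anchored ligase, had -0.47, -0.42 and -0.30 on MAP30 arrays, against 0.29, 0.24 and 0.27 on control arrays. The groups were apart, with more spread on the MAP30 arrays (SD 0.087) than on the control arrays (SD 0.024). TRIM59 fell 1.58-fold (-0.66 ± 0.05 SE, adjusted p = 1.09e-05), and both probe sets fell. TRIM13, the other membrane-anchored ligase, which acts at the endoplasmic reticulum, averaged -0.01 from 2 probe sets that rose, 2 that fell and 1 that did not pass. TRIM45, with a filamin repeat, fell by 0.49 ± 0.04 SE, carried by 1 of 3 probe sets, at -1.36, and with the median over probe sets it stood at -0.14 and was not called (adjusted p = 0.134). In the NHL class, TRIM2, a neuronal ligase of neurofilaments, rose by 0.22 ± 0.05 SE, from 1 probe set at 0.41 and 2 at 0.05 and 0.20 that did not pass. TRIM32, mutated in a limb-girdle muscular dystrophy, fell by 0.21 ± 0.04 SE, and TRIM3 and TRIM71 did not pass. TRIM44, which lacks the RING, rose by 0.12 ± 0.04 SE from 1 probe set at 0.56 and 2 below 0 that did not pass. The smallest rises were those of TRIM11 (0.10), TRIM29 (0.11) and TRIM61 (0.11). The calls of TRIM11 and TRIM29 were lost in 5 of the 6 fits without 1 array, and that of TRIM61 in 1. TRIM35 fell by 0.20. TRIM62, at -0.18, passed although its groups overlapped and none of its 3 probe sets passed alone. The 24 members that did not pass ranged from -0.24, in TRIM42, to 0.10, in TRIM5.

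Near-identical copies cannot be told apart with confidence by the probes. Of 5 measured members with such copies, TRIM51 rose, by 0.32 ± 0.06 SE, and the other 4 did not pass. That is 20% called, against 57.5% of all genes. A probe set shared by TRIM51 and its pseudogenes stood at -0.08 and did not pass. The rule found 75 symbols in the RefSeq gene table, and 16 of them had no probe set of their own. A pair of probe sets shared by TRIM16 and TRIM16L fell, with log2 fold changes of -0.52 and -0.57.

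Family relatives under other symbols held a further large change. TRIML2, a TRIM-like protein with a SPRY domain and no RING, had 1.11, 1.16 and 1.12 on MAP30 arrays, against -1.13, -1.12 and -1.13 on control arrays. The arrays of each group lay almost on top of each other, and TRIML2 rose 4.79-fold (2.26 ± 0.03 SE, adjusted p = 7.37e-09). Both TRIML2 probe sets rose. Its neighbour in name TRIML1 did not pass, at -0.12. PML, the scaffold of PML nuclear bodies, had -0.24, -0.33 and -0.41 on MAP30 arrays, against 0.29, 0.27 and 0.28 on control arrays. PML fell 1.52-fold (-0.61 ± 0.05 SE, adjusted p = 1.62e-05), with 5 of 10 probe sets lower and 1 higher. RNF207, a cardiac relative, fell by 0.41 ± 0.05 SE, and MEFV and CMYA5 did not pass. Of 18 measured PML-body genes, 9 rose and 6 fell, with a median of 0.07. Called genes were 83.3% of this list, against 57.5% of all genes. Calls higher and lower numbered 5 and 9 on hybridization scaling and 12 and 5 on poly-A scaling. SP140, a chromatin reader of immune cells, rose by 2.62, while SUMO3 and the SUMO-targeted ligase RNF4 fell, with log2 fold changes of -1.13 and -1.07.

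Of 12 measured E2 enzymes that pair with TRIM ligases, 2 rose and 5 fell, with a median of -0.06. Called genes were 58.3% of this list, near the 57.5% of all genes. UBE2L6, the E2 of the interferon-induced modifier ISG15, fell by 1.90 ± 0.06 SE. UBE2E2 rose by 0.96, its paralogue UBE2E3 fell by 0.55, and UBE2N, which builds K63 chains, fell by 0.54. The counts higher and lower were 2 and 10 on hybridization scaling and 6 and 5 on poly-A scaling. Of 12 measured genes of p53 ubiquitination, in which TRIM24 and TRIM28 take part, 6 rose and 4 fell, with a median of 0.12. Here 83.3% were called, against 57.5% of all genes. The p53 ligases MDM2 and RCHY1 rose by 0.90 and 0.87 and the phosphatase PPM1D by 0.52, while the cullin CUL4A fell by 0.45. Calls higher and lower numbered 4 and 6 on hybridization scaling and 7 and 3 on poly-A scaling.

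Probe sets of one TRIM gene often differed. Of the 159 member probe sets, 36 rose, 42 fell and 81 did not pass, while 56.3% of all probe sets passed. Among the 45 members with more than 1 probe set, 5 (11.1%) had probe sets that passed in opposite directions, against 850 of 11734 genes (7.24%). These were TRIM13, TRIM25, TRIM27, TRIM33 and TRIM38, a regulator of NF-κB signalling whose 2 probe sets stood at 0.44 and -0.28. TRIM55, TRIM22, TRIM7, TRIM24, TRIM37, TRIM52 and TRIM59 had every probe set on one side.

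**Figure D5:**
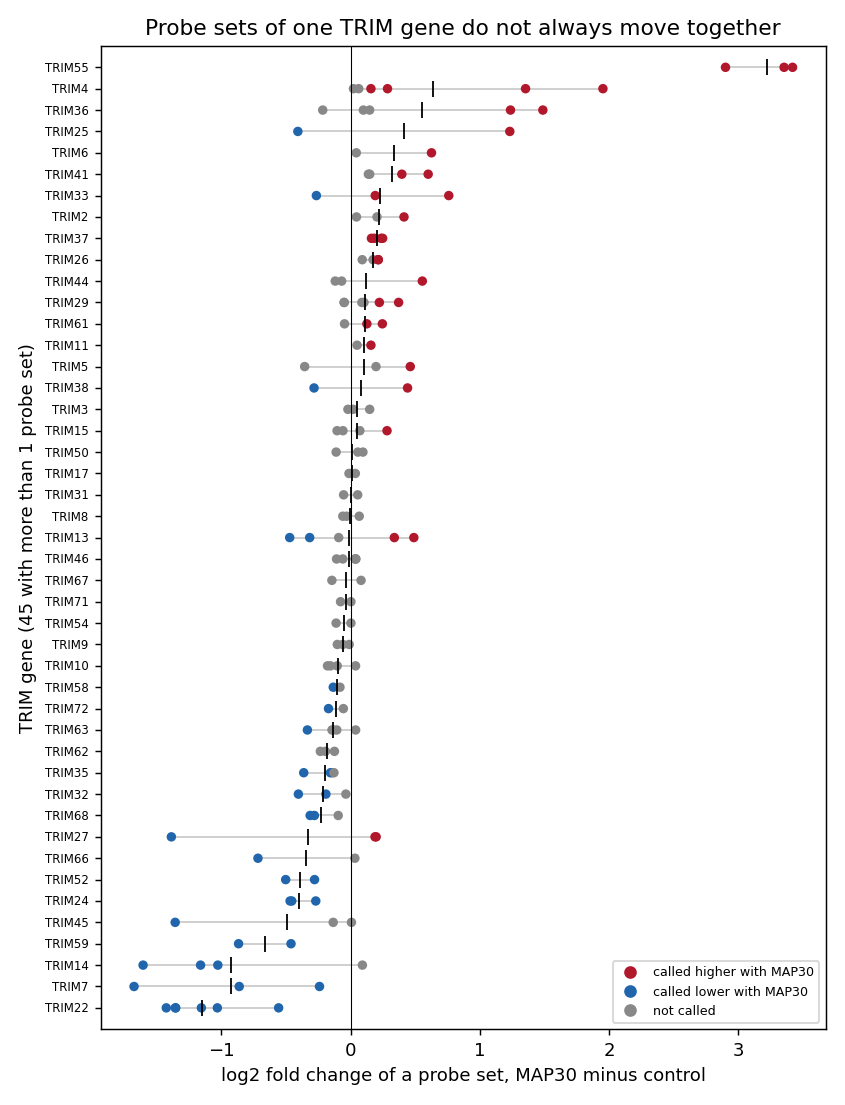
Log2 fold change (x axis, MAP30 minus control) of each probe set of the 45 TRIM genes with more than 1, with a black tick at the gene mean; red probe sets rose, blue fell and grey did not pass. TRIM55 and TRIM22 hold together, while TRIM25, TRIM27 and TRIM13 reach both sides of 0.

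Genes with an RNF symbol were set beside the TRIM genes as a scale. The set is defined by symbol only and includes RNF207, described above as a relative. Of 76 measured genes with an RNF symbol, 29 rose, 17 fell and 30 did not pass, or 60.5% called. Their median log2 fold change was 0.06 and their median size 0.267, against -0.04 and 0.184 in the TRIM genes. Changes of at least 2-fold in the gene mean passed in 8 RNF genes (10.5%) and in 2 TRIM genes (3.39%), a difference that was not tested. Counted by probe set, the TRIM share was 15.3%, against 15.8% of all genes, and no such count is given for RNF genes. The RNF values are as deposited, and no other scaling is given for them.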

How the data were processed

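The authors deposited log2 expression values of 49395 probe sets on 6 Affymetrix arrays, 3 of MAP30 and 3 of control cells. RMA and MAS5 are named, without their role, per the submitters' processing notes. No source used here states the base of the logarithm, which was taken as 2. Each probe set's median over the 6 arrays is 0, so levels were removed and only differences between arrays can be read. RNA was amplified from the 3' end, per the labels' protocols. Precision is limited by having 3 arrays per group.

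Gene names came from the platform annotation: 44988 had 1 symbol, 1832 several, 2473 none and 102 were controls. Values were averaged over the single-gene probe sets of a gene. limma 3.58.1 (R 4.3.3; lmFit, eBayes, two-sided) compared the groups with no covariate, over all 18132 genes and, separately, all 49395 probe sets, with Benjamini-Hochberg adjustment at 0.05. The fit was tested on simulated data. Alternatives were centring on gene medians, on hybridization controls or on poly-A controls, quantile normalization, other ways to join probe sets, a robust prior, the replicate number as a block, stricter thresholds and leaving out each array.

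The members, gene lists and tests were chosen with earlier results of these data known. Named were the 12 largest rises and falls without overlap between groups, fixed TRIM genes and relatives, and, from each list, up to 4 called genes that changed most; other names were added after their values were seen. Promoters came from RefSeq (GRCh38.p14). Tables and figures used Python 3.11.15, pandas 2.3.3, numpy 2.4.6, scipy 1.17.1 and matplotlib 3.10.9.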

Additional observations from a re-analysis of the deposited data

Results flagged for a closer look

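TRIM39, a SPRY ligase, had no probe set of its own and so was not among the 59 genes. Its 3 probe sets shared with the read-through gene TRIM39-RPP21 were flagged as a signal outside the genes compared. They rose by 0.65 (adjusted p = 7.09e-05), 0.40 and 0.47 in log2 with MAP30 in the limma fit over all probe sets, with no overlap between the groups. Values of the first were 0.27, 0.26 and 0.25 on MAP30 arrays, against -0.43, -0.50 and -0.25 on control arrays. A probe set shared with RPP21 as well fell by 0.27. Which of the transcripts each probe set measured was not tested.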

How the results depend on the processing

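The counts of 15 TRIM genes higher and 20 lower stayed within 1.5 times under gene-median centring, quantile normalization, the other ways to join probe sets and the robust prior. They moved to 4 and 42 on hybridization scaling, 28 and 12 on poly-A scaling, and 2 and 5 for changes of at least 1.5-fold; an adjusted p under 0.01 left 10 and 18. Leaving out 1 array gave 12 to 14 higher and 18 to 22 lower, and 29 of the 35 calls held in every such fit; TRIM11, TRIM29, TRIM44, TRIM61, TRIM62 and TRIM63 were lost in at least 1. The family median of -0.04 became -0.25 on hybridization scaling, 0.12 on poly-A scaling, -0.017 with quantile normalization and -0.077 with the probe set of largest spread, and ran from -0.073 (without control replicate 1) to -0.027 (without MAP30 replicate 3). With the replicate block 12 rose and 19 fell, with the same median of -0.04. Deviations of same-numbered arrays correlated at -0.0396, 0.0702 and 0.0106, so no shared deviation was seen. Whether same-numbered arrays were handled together cannot be told from these values.

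Among genes called as deposited, signs turned for TRIM37 (-0.00087), TRIM26 (-0.035), TRIM44 (-0.086), TRIM11 (-0.10), TRIM29 (-0.094) and TRIM61 (-0.0999) on hybridization scaling, TRIM63 (0.028) on poly-A scaling, TRIM44 (-0.065) and TRIM27 (0.17) with the median over probe sets, and TRIM14 (0.092) on probe sets of class _at or _a_at only. Members not called as deposited also turned. TRIM8 (0.16), TRIM9 (0.11), TRIM13 (0.15), TRIM46 (0.15) and TRIM47 (0.12) were called higher on poly-A scaling. TRIM3, TRIM15, TRIM17, TRIM31, TRIM50 and TRIM60, above 0 as deposited, were called lower on hybridization scaling. In all, 11 members (18.6%) were called lower on hybridization scaling and higher on poly-A scaling, against 14.5% of all genes. TRIM5 was called higher on poly-A scaling, at 0.27. TRIM5 stood at -0.11 on hybridization scaling and at -0.355 with the probe set of largest spread or of class _at or _a_at. The median outweighs the probe set of TRIM27 and of TRIM44 that differs from the others; for TRIM14 the class limit drops the 3 that fell and keeps the 1 that did not pass. The calls of TRIM11, TRIM29, TRIM61 and TRIM62 were lost with the replicate block (adjusted p = 0.0657, 0.0520, 0.0530 and 0.0800), and TRIM45 was at -0.14 and not called with the median over probe sets. Leaving out TRIM13, TRIM25, TRIM27, TRIM33 and TRIM38, chosen after seeing the data, left 13 higher and 19 lower.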
